A study of Mus musculus with 26 samples.

Results

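Lhx3, Lhx4, Lhx5, Isl1, Isl2, Mnx1 and En1 are homeobox transcription factors that mark classes of neurons in the embryonic spinal cord. They were selected by gene name alone, and all 7 were found among the 55141 genes of the count table. Their RNA was followed in gastruloids, cultured mouse stem cell aggregates that lengthen and make tissues of the posterior body, by sequencing polyadenylated RNA in 26 libraries. The study's title concerns CTCF-dependent insulation of Hoxb13, so the lines differ in edits of the HoxB cluster and, as labelled, not in any of the 7 genes.

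The common background of the 8 lines was HoxB Del/Del(i9-13), and no library without that allele was analysed here. Del had no other edit. Ins had Ins(CBS5-10) added, and InsDel5to10, InsDel7to10 and InsDel8to10 were Ins with Del(CBS5-10), Del(CBS7-10) or Del(CBS8-10) on top. InvClone1 and InvClone2 were clone 1 and clone 2 of the Ins(CBS5-10):Inv(CBS5-10) genotype, and InvDel7to10 was that genotype with Del(CBS7-10) added. The 18 libraries at 120h comprised 4 of InvClone1, 3 of Ins and 3 of Del. InvClone2, InsDel7to10 and InsDel5to10 had 2 libraries each at that stage, InvDel7to10 and InsDel8to10 had 1 each. Del, Ins, InsDel8to10 and InvDel7to10 each had 1 library at 144h and InvClone1 had 2, and InvClone1 alone was sampled at 96h and at 168h, with 1 library at each. The labels tell clones apart for the inverted allele only. An aggregate is a mixture of tissues, so fewer cells of a type and less RNA per cell cannot be told apart in these values.

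LIM-homeodomain factors such as Lhx3, Lhx4, Lhx5, Isl1 and Isl2 act in pairs held together by the cofactor Ldb1, and the combination present in a newborn neuron helps to set its class. In the spinal cord Isl1, Lhx3 and Mnx1 together mark motor neurons, while Lhx3 without Isl1 marks the ventral V2a interneurons. Lhx4 and Isl2 are close relatives of Lhx3 and Isl1 with overlapping roles, Lhx5 marks several dorsal and ventral interneuron classes, and En1 marks the inhibitory V1 interneurons. Most of these genes also serve other tissues: Isl1 is used in cardiac progenitors and sensory neurons, Mnx1 in the notochord and endoderm, En1 at the boundary of midbrain and hindbrain and in the dermomyotome, and Lhx3 and Lhx4 in the pituitary.

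In the deposited tables (mm10) Lhx3 (ENSMUSG00000026934) spans chr2:26200212-26208289, Lhx4 (ENSMUSG00000026468) chr1:155698031-155751684 and Lhx5 (ENSMUSG00000029595) chr5:120431699-120441223. Isl1 (ENSMUSG00000042258) spans chr13:116298281-116309689 and Isl2 (ENSMUSG00000032318) chr9:55538672-55546180. Mnx1 (ENSMUSG00000001566) spans chr5:29473034-29478470 and En1 (ENSMUSG00000058665) chr1:120602418-120607992. RefSeq (GRCm38.p6, the assembly that mm10 is made from) holds the promoter of 6 of the 7 genes, with 2 start sites for Lhx3, and no entry was matched for Lhx5. Below are the bases just upstream of the start of Lhx3 and Isl1, whose RNA rose from 120h to 144h, and of Mnx1, whose RNA was already abundant at 120h. All 3 lie on the minus strand and are written 5′ to 3′ in the direction of transcription. They cover chr2:26208290-26208499 for Lhx3, chr13:116309690-116309938 for Isl1 and chr5:29478471-29478720 for Mnx1. Capitals mark CCAAT, the core of the CCAAT box, on either strand.
Lhx3: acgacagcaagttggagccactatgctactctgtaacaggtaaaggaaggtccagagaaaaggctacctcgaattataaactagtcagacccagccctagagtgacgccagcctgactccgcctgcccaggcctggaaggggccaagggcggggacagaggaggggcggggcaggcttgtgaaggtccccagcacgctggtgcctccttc
Isl1: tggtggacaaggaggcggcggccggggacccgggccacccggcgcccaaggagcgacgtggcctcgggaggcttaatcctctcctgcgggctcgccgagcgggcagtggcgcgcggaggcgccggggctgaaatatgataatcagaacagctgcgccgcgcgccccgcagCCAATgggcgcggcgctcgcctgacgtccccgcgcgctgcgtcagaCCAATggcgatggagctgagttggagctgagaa
Mnx1: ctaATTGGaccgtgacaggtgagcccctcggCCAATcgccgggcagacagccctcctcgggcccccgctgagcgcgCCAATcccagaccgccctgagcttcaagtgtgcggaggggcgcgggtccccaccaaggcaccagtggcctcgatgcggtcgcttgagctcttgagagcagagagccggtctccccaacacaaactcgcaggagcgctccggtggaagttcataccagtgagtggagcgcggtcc
Within the 250 bases before a start CCAAT occurred 2 times in Isl1, 3 times in Mnx1, 2 times in Isl2 and 2 times in En1, and in none of the windows of Lhx3 and Lhx4. Of all 32851 RefSeq mouse promoters, 33.8% hold it on either strand in the same window. CAGATG, a form of the E-box that basic helix-loop-helix factors bind, was found once (reading CATCTG), before the second start of Lhx3, and 14.4% of all promoters hold it. TAATTA, a common core of homeodomain binding sites, was found in none of the windows, against 4.84% of all promoters. The 7 windows were 56.0% to 71.2% G and C, against a median of 52.4% over all promoters. The motifs were chosen with the letters in view.

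The libraries held 18746411 to 37716547 counts (median 22616412), and 3 counts, the floor used here for a count of 0, stand for 0.0778 to 0.165 CPM, counts scaled to library size. Each library also has 1 of 4 library labels (ISML_first, ISML_second, ISML_third, TruSeq_second). At 120h the summed CPM of 12 endoderm markers was 284 to 412 in the 5 ISML_second libraries and 23.4 to 384 in the other 13, and that of 10 cardiac and lateral mesoderm markers 18.6 to 45.6 against 5.59 to 17.7. InvClone1 replicate 2 at 144h, an ISML_second library, stood apart with 0.0864% mitochondrial counts. Genes with at least 1 count were most numerous, 54.8% of all, in the TruSeq replicate 2 of InvClone1 at 120h. The stage comparison below uses ISML_second libraries alone, so that 5 lines are seen at 120h and at 144h under 1 label.

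**Figure D1:**
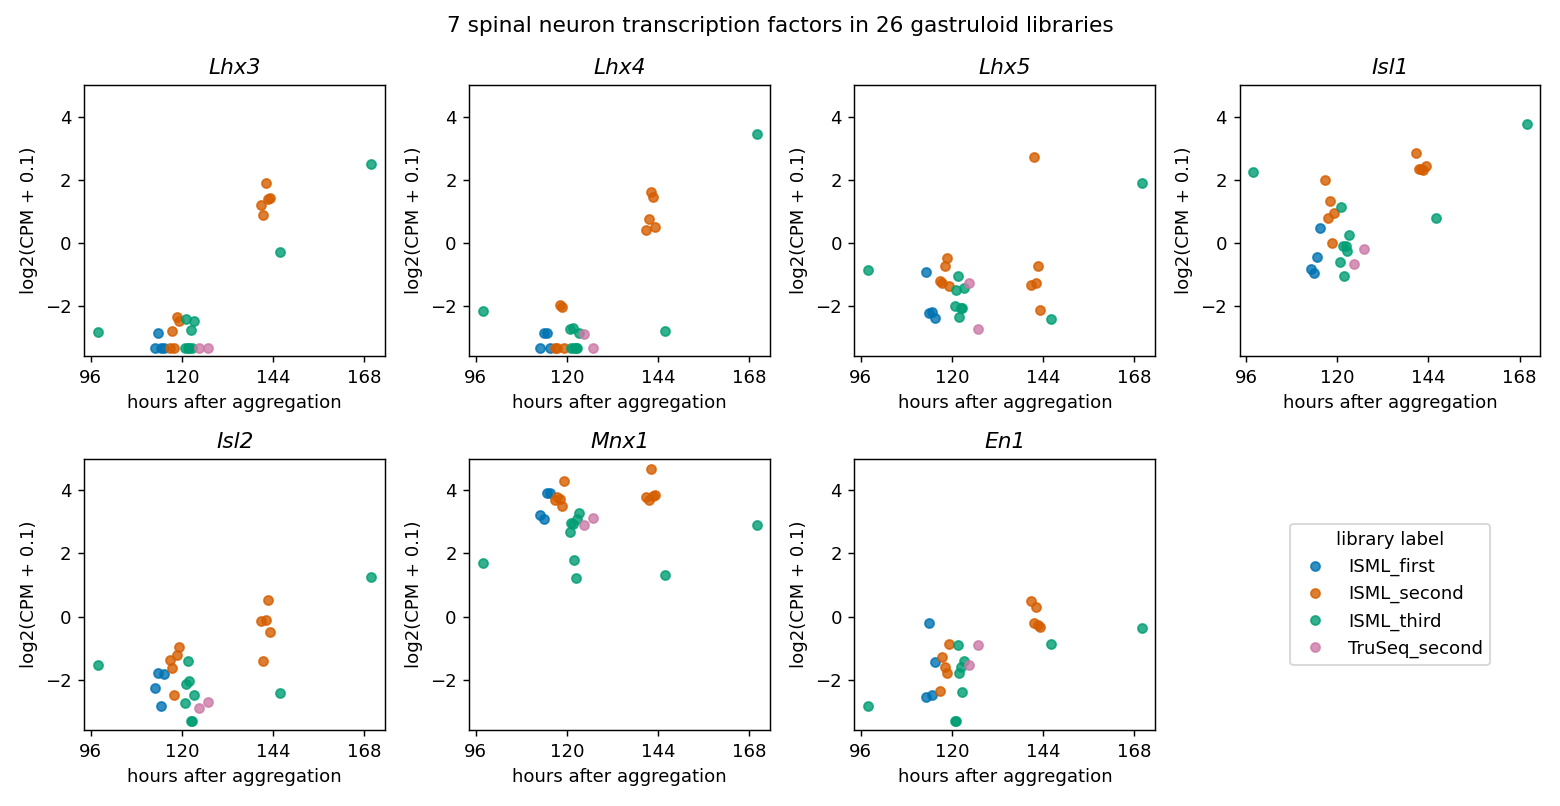
Levels of the 7 genes as log2(CPM + 0.1) (vertical axis) by hours after aggregation (horizontal axis), 1 point per library, coloured by library label and shifted sideways by label. Lhx3 and Lhx4 lie at 0 to 4 counts in all 18 libraries at 120h and higher in the ISML_second libraries at 144h, while Mnx1 is already high at 120h.

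Lhx3 and Lhx4, the factors of motor neurons and V2a interneurons, had at most 4 counts in any library at 120h and at least 29 in each ISML_second library at 144h. Over all 18 libraries at 120h Lhx3 had 11 reads in total and Lhx4 13, at most 2 and 4 in a library. In the ISML_second libraries Lhx3 had 0 counts in Ins, 1 in InsDel8to10, 0 in InvClone1, 2 in InvDel7to10 and 2 in Del at 120h, and 52, 38, 70, 55 and 59 counts in the same lines at 144h. All 5 libraries at 144h thus lay above all 5 at 120h, as they did for 8.67% of the 15011 genes tested. Summed over the lines, 5 reads at 120h stood against 274 at 144h, a ratio of 57.7 after scaling for depth (95% counting interval 24.4 to 179). Lhx4 had 0, 0, 4, 3 and 0 counts in these lines at 120h and 29, 35, 57, 57 and 30 at 144h, again without overlap. Its 7 reads at 120h stood against 208 at 144h, a ratio of 31.3 (14.9 to 78.8). At 144h Lhx3 reached 2.53 ± 0.70 CPM (SD, n = 5) and Lhx4 1.94 ± 0.80 CPM. The InvClone1 and InvDel7to10 libraries were the highest for Lhx4, at 2.97 and 2.62 CPM, and the other 3 lines lay between 1.23 and 1.60 CPM.

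The fit of the 10 libraries with a term for line gave a log2 fold change of 5.72 ± 0.47 (SE) for Lhx3 (edgeR quasi-likelihood test, adjusted p = 1.94e-04) and 4.99 ± 0.48 for Lhx4 (adjusted p = 4.33e-04). Of the 7 genes 5 could be tested in this fit, and 4 of the 5 passed, all higher at 144h, where 15.2% of all genes tested passed and 9.25% were higher. Lhx3, Lhx4 and En1 passed the filter on low counts only because of their 144h libraries, so that count lends no support of its own. Lhx5 and Isl2 fell below the filter. Lhx3 and Lhx4 also act in the pituitary. Pou1f1, the factor of hormone-producing pituitary cells, had 0 counts in all 10 libraries. The summed CPM of the 5 pituitary markers was 6.60 to 11.6 at 120h and 3.56 to 6.77 at 144h. Pitx1, a gene of this list that is also used outside the pituitary, rose by 1.61 (log2 scale, edgeR adjusted p = 0.0161).

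**Figure D2:**
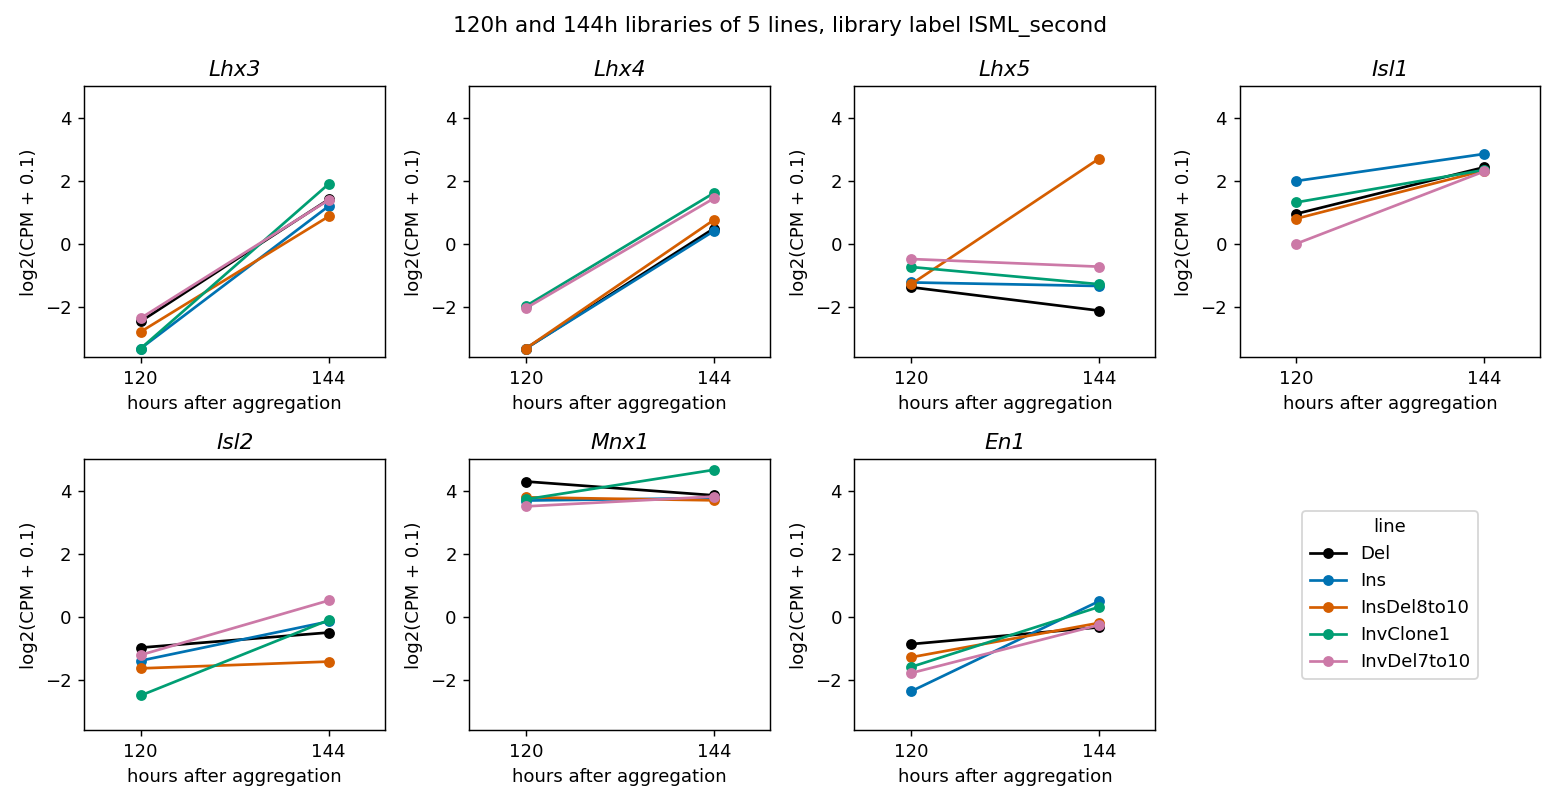
The 10 ISML_second libraries, with log2(CPM + 0.1) on the vertical axis and hours after aggregation on the horizontal axis, and each line of the plot joining the 120h and 144h libraries of 1 line of gastruloids. Lhx3, Lhx4 and Isl1 are higher at 144h in all 5 lines, Mnx1 goes both ways, and Lhx5 is high in InsDel8to10 at 144h alone among these libraries.

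Isl1, the LIM factor shared by motor and sensory neurons and by cardiac progenitors, rose from 2.13 ± 1.12 to 5.44 ± 0.97 CPM (SD, n = 5 each). At 120h it had 3.89 CPM in Ins, 1.64 in InsDel8to10, 2.39 in InvClone1, 0.902 in InvDel7to10 and 1.84 in Del, and at 144h 7.15, 4.93, 4.997, 4.83 and 5.30 CPM. The lowest library at 144h thus stood above the highest at 120h, as it did for 8.67% of the genes tested, and Ins was the highest line at each stage. The log2 fold change was 1.46 ± 0.22 (edgeR adjusted p = 0.00326). By line the ratio of 144h to 120h ran from 1.84 in Ins (95% counting interval 1.40 to 2.42) to 5.36 in InvDel7to10 (3.27 to 9.25). Of the 10 cardiac and lateral mesoderm markers 7 were tested and 3 rose, Gata4 by 2.17 ± 0.14, Hand2 by 1.99 ± 0.50 and Tbx20 by 1.65 ± 0.36 (edgeR adjusted p = 7.91e-05, 0.0322 and 0.0174), and none of the 10 was at 0 in all 5 libraries at either stage. Their summed CPM was higher at 144h than at 120h in all 5 lines, as Isl1 was. It was 45.6 and then 126 in Ins, 29.9 and 195 in InvClone1, and 18.6 to 28.7 and then 30.4 to 35.5 in the other 3. The sizes differed by line: the Isl1 ratio was 1.84 in Ins and 2.09 in InvClone1. In InvDel7to10 it was 5.36, where the summed CPM went from 25.7 to 30.4. Tnnt2 alone ran from 0.821 to 117 CPM over the 5 libraries at 144h. Among 9 sensory neuron and neural crest markers, 6 were tested, and 3 rose, Neurog1 and Pou4f1 among them, and 1 fell, with a summed CPM of 104 to 120 at 120h and 54.7 to 73.0 at 144h and no marker at 0 throughout. The part of cardiac or sensory cells in the Isl1 values was not tested.

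Isl2, the second islet factor of motor neurons, was much lower. It had 6, 5, 2, 7 and 10 counts in Ins, InsDel8to10, InvClone1, InvDel7to10 and Del at 120h and 19, 6, 16, 29 and 14 counts at 144h. The stages overlapped, since InsDel8to10 at 144h lay below some 120h libraries. Each line had more at 144h than at 120h, as did 14.8% of the genes tested, which do not include Isl2. In InsDel8to10 and Del the ratios were 1.23 and 1.49, with 95% counting intervals that spanned 1 (0.313 to 5.11 and 0.616 to 3.75). Summed over the lines the ratio was 2.95 (95% counting interval 1.92 to 4.63). With no filter the log2 fold change was 1.50 ± 0.42 (edgeR adjusted p = 0.0232).

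Mnx1, the homeobox gene that consolidates motor neuron identity and also acts in notochord and endoderm, did not pass between these stages. It had 12.9 CPM in Ins, 13.8 in InsDel8to10, 13.2 in InvClone1, 11.3 in InvDel7to10 and 19.6 in Del at 120h, and 13.6, 12.9, 25.3, 14.0 and 14.4 CPM at 144h. The 2 sets overlapped almost completely, with InvClone1 at 144h the highest and Del at 120h the next. The log2 fold change was 0.18 ± 0.19 (edgeR adjusted p = 0.569, 95% interval -0.26 to 0.62), and without the InvClone1 line it was -0.0390. By line the ratio was 1.92 in InvClone1 (1.67 to 2.21), 1.24 in InvDel7to10 (1.05 to 1.48) and 0.736 in Del (0.638 to 0.849), and the intervals of Ins and InsDel8to10 spanned 1. Markers of the other tissues that use Mnx1 went different ways. The summed CPM of 7 notochord markers was 87.1 to 118 at 120h and 51.3 to 80.0 at 144h. T, which is also in the list of tailbud markers, made up 54.1 to 82.7 CPM of that sum at 120h. At 144h T had 9.22 to 37.6 CPM, a fall of 1.89 (log2 scale). Shh, Foxj1 and Foxa2 rose by 0.68, 0.91 and 0.53 (log2 scale, edgeR adjusted p = 0.0216, 0.0390 and 0.0483). The summed CPM of 12 endoderm markers was 284 to 412 and then 370 to 543, highest in InvClone1 at 144h, where Mnx1 was also highest. Among them the keratin gene Krt8 rose by 1.04, and Sox17 and Trh fell by 0.96 and 1.55 (edgeR adjusted p = 0.00124, 0.00553 and 0.0101). The part of either tissue in the Mnx1 values was not tested, and no marker of these 2 lists was at 0 in all 5 libraries of a stage.

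En1, the marker of V1 interneurons, rose from a low base. It had 2, 7, 6, 4 and 11 counts in Ins, InsDel8to10, InvClone1, InvDel7to10 and Del at 120h, and 31, 17, 22, 16 and 16 counts at 144h. The stages did not overlap, as for 8.67% of the genes tested. En1 passed the filter only because of its 144h libraries, so the lack of overlap lends no support of its own. The log2 fold change was 1.85 ± 0.41 (edgeR adjusted p = 0.0203). The call rests on few reads: leaving out line Ins, InsDel8to10 or InvDel7to10 gave 1.51, 1.99 and 1.83 with adjusted p = 0.0529, 0.0543 and 0.0686. Of the 7 midbrain and forebrain markers 4 were tested and 2 rose, Wnt1 among them by 1.31 (log2 scale, edgeR adjusted p = 0.0118), the summed CPM going from 2.71 to 10.7 at 120h to 7.08 to 15.8 at 144h. En2, the other engrailed gene and a midbrain marker, had 0.807 to 1.27 CPM at 120h and 1.15 to 2.51 CPM at 144h. In the 10 dermomyotome and somite markers, 2 of 8 tested rose and 5 fell. The somite genes Meox1, Pax3 and Tcf15 fell by 1.07, 1.36 and 1.52, and the sclerotome gene Pax1 rose by 1.11 (edgeR adjusted p = 2.02e-04, 5.87e-04, 0.00186 and 0.00144). The part of these tissues in the En1 values was not tested.

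Lhx5, the LIM factor of several interneuron classes, was low in 9 of the 10 libraries. It had 7, 7, 13, 13 and 7 counts in Ins, InsDel8to10, InvClone1, InvDel7to10 and Del at 120h. At 144h there were 7, 6, 11 and 3 counts in Ins, InvClone1, InvDel7to10 and Del, and 141 counts (6.43 CPM) in InsDel8to10. That library alone stood out, 20.7 times its own 120h library (95% counting interval 9.78 to 52.4), and the interval of each of the other 4 lines spanned 1. With no filter the log2 fold change over the 5 lines was 0.87 ± 1.00 (edgeR adjusted p = 0.771). InsDel8to10 has 1 library at 144h, so the value has no replicate check.

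Other genes stood out in the same library. When the 27051 genes with a read at 144h were ranked by their CPM in InsDel8to10 over the highest of the other 4 ISML_second libraries (0.3 CPM added to each), Robo3 came first, Lhx5 next, then Otp and Wnt7b. Robo3, a receptor of commissural axons as they approach the midline, had 19.3 CPM there and at most 0.737 in the other 4. Otp, a homeobox gene of ventral interneurons and the hypothalamus, had 3.69 CPM against at most 0.364, and the Wnt ligand gene Wnt7b 7.21 CPM against at most 1.52. Pax2 and Lhx1, which mark inhibitory interneurons together with Lhx5, were also highest in this library, at 3.65 and 7.71 CPM, against 0.869 to 2.12 and 2.65 to 4.23 CPM in the other 4. Lhx3 and Isl2 were lowest in this library among the 5, and Isl1 lay within the range of the others. The ranking was chosen after the Lhx5 values were seen.

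**Figure D3:**
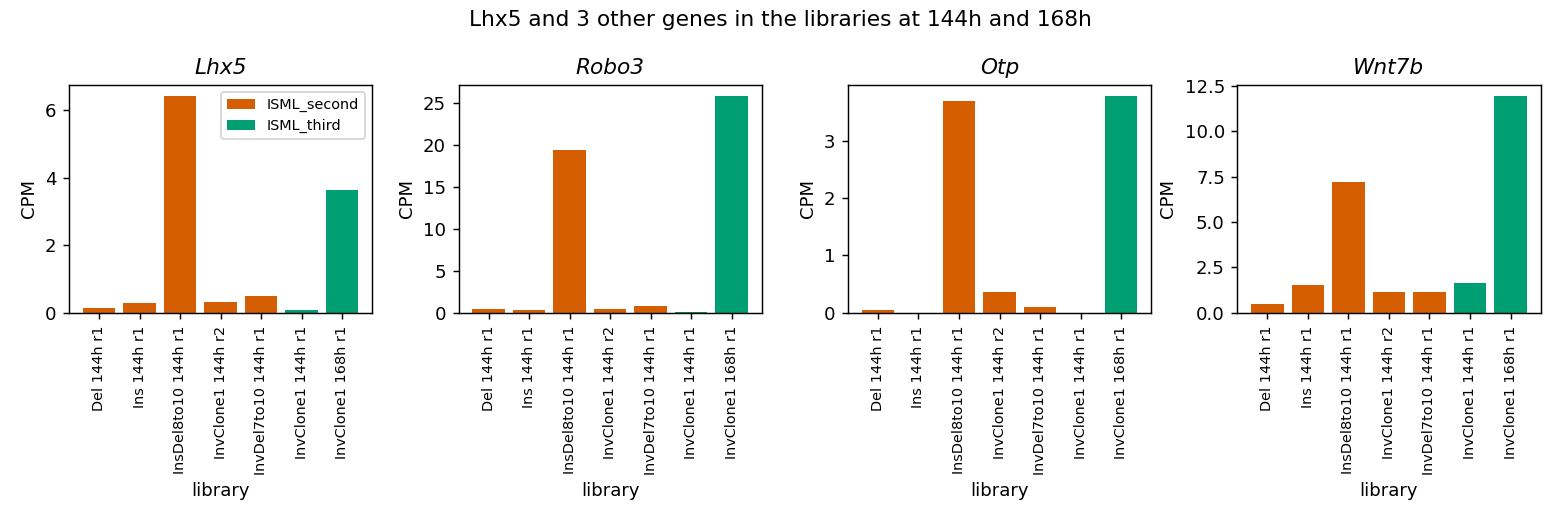
CPM (vertical axis, from 0) of Lhx5, Robo3, Otp and Wnt7b in each library at 144h and 168h (horizontal axis, r1 and r2 for replicates 1 and 2), coloured by library label. All 4 genes are high in InsDel8to10 at 144h and in InvClone1 at 168h and low in the other 5 libraries.

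InvClone1 was the 1 line followed from 96h to 168h, in 4 ISML_third libraries with 1 library a stage. Lhx3 had 1, 1, 16 and 154 counts at 96h, 120h, 144h and 168h, and Lhx4 had 3, 0, 1 and 302. Both were thus highest at 168h, at 5.50 and 10.8 CPM (95% Poisson intervals 4.66 to 6.44 and 9.60 to 12.1, counting error only), and Lhx4 was under the floor of 3 counts at 144h when Lhx3 was not. Isl1 had 115, 18, 37 and 376 counts, so that it was higher at 96h than at 120h before reaching its highest value, 13.4 CPM, at 168h. Isl2 had 6, 0, 2 and 64 counts, and Lhx5 had 11, 3, 2 and 102. Both thus had at most 3 reads at 120h and at 144h and their most at 168h. Mnx1 had 78, 48, 54 and 208 counts, a shallower course, and En1 had 1, 5, 10 and 19.

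**Figure D4:**
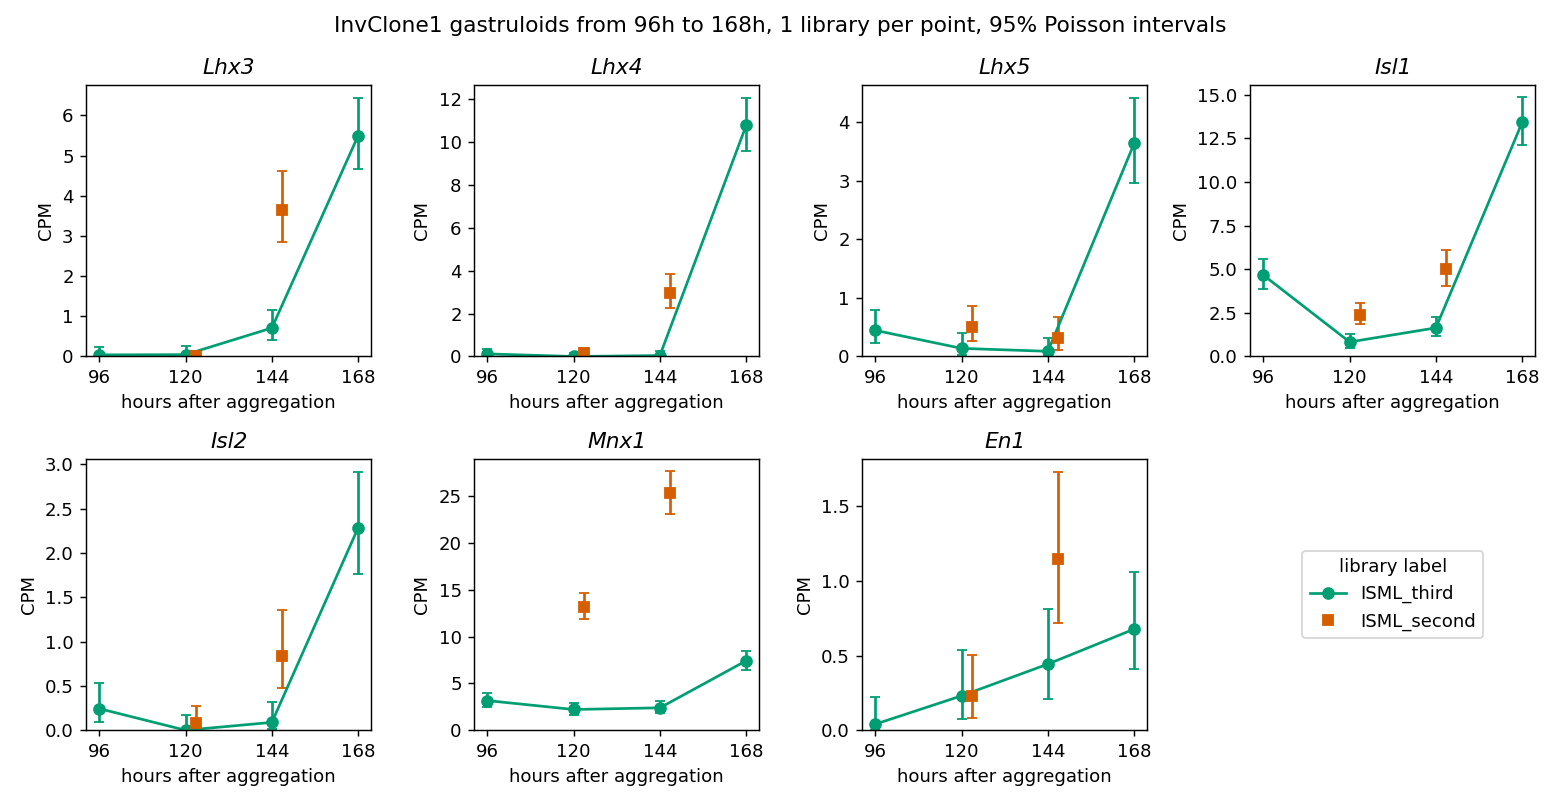
CPM of the 7 genes in InvClone1 (vertical axis, from 0, own scale for each gene) by hours after aggregation (horizontal axis), for the ISML_third libraries (circles joined by lines) and the ISML_second libraries (squares), with 95% Poisson intervals. All 7 genes are highest at 168h among the ISML_third libraries, and at 144h the ISML_second library lies above the ISML_third one for each gene but with wide intervals for Lhx5.

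Between 144h and 168h the fit of all 26 libraries, with terms for group and library label, gave 7.69 ± 1.09 for Lhx4 (log2 fold change ± SE, edgeR adjusted p = 0.0137), 5.30 ± 0.99 for Lhx5 (adjusted p = 0.0282) and 4.67 ± 0.98 for Isl2 (adjusted p = 0.0458). These 3 of the 7 genes passed, all higher at 168h, where 0.839% of the 17769 genes tested passed and 0.754% were higher. Lhx4 and Isl2 had at most 0.154 and 0.408 CPM in any library at 120h. They passed the filter on low counts only because of libraries at 144h or 168h, so that count lends no support of its own. Isl1 (3.01 ± 0.76), Lhx3 (2.72 ± 1.00), Mnx1 (1.39 ± 0.41) and En1 (0.30 ± 1.24) did not pass (adjusted p = 0.0917, 0.232, 0.144 and 0.942). The fit takes the spread of the lone 168h library from the replicated groups, and without a library term none of the 7 passed and Mnx1 and En1 turned to -0.90 and -0.22. Without the ISML_second library at 144h Lhx4 alone passed (Lhx5 5.27 and Isl2 4.60, edgeR adjusted p = 0.107 and 0.103), and at a minimum count of 50 Isl2 did not (0.0570). The 2 InvClone1 libraries at 144h were far apart: the ISML_second library had 487 counts of Mnx1 against 54 in the ISML_third one (ratio 10.6, 95% counting interval 7.98 to 14.3), 57 against 1 of Lhx4, 70 against 16 of Lhx3 and 96 against 37 of Isl1. For Mnx1 the 168h library (7.42 CPM) lay below the ISML_second library at 144h (25.3 CPM), so its direction depends on the label. Lhx3, Lhx4, Lhx5, Isl1 and Isl2 were higher at 168h than in either library at 144h.

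From 96h to 120h none of the 7 genes passed, against 6.47% of all genes. At an unadjusted p under 0.05 by edgeR there were 3 of the 7, and 3871 of the 17769 genes tested. With DESeq2 1 of the 7, Isl1, passed (-2.52, adjusted p = 0.0431), and with no filter 3 did. Isl1 had the most reads among them, 4.67 CPM at 96h against 0.528 to 2.39 CPM in the 4 libraries at 120h, and a log2 fold change of -2.51 ± 0.79 (edgeR adjusted p = 0.0772). The summed CPM of 12 neural progenitor markers was 24.8 at 96h, with 2 of the 12 at 0, and 941 at 168h, with none at 0. Cardiac and lateral mesoderm markers summed to 25.98, 9.28, 11.9 and 20.3 CPM over the 4 stages and endoderm markers to 432, 113, 162 and 158 CPM, both highest at 96h. At 96h none of the 10 cardiac and lateral mesoderm markers and 1 of the 12 endoderm markers was at 0. Hand1, Nkx2-5, Hand2 and Tnnt2 had only 3, 2, 4 and 6 counts in that library. Most of the endoderm sum at 96h came from Cdh1 and Trh, at 177 and 150 CPM. Sox17, Foxa1 and Foxa2 had 4.02, 3.53 and 3.37 CPM at 96h, and Foxa1 was higher at 120h, at 5.54 CPM. The part of these tissues in the Isl1 value at 96h was not tested.

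The edits of HoxB were compared at 120h, when Lhx3 and Lhx4 had at most 4 counts and Lhx5, Isl2 and En1 had at most 20 counts a library. None of the 7 genes passed in any of 5 comparisons, where 0.00563% (Ins against Del), 0.0169% (InvClone1 against Ins), 0.152% (InsDel5to10 against InvClone2), 0.141% (InsDel7to10 against InvClone2) and 0.253% (InsDel7to10 against InsDel5to10) of the 17769 genes tested did. At an unadjusted p under 0.05 there was 1 of the 7 in each comparison except InsDel5to10 against InvClone2, where there was 0, and DESeq2 called 0 in each. Of the 17769 genes tested 188, 169, 1161, 1587 and 1895 had an unadjusted p under 0.05 by edgeR, in the order above. For Lhx3, Lhx4, Lhx5, Isl2 and En1 these comparisons rest on 0 to 20 counts a library.

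Mnx1 was the member with enough reads to compare. Its levels were 15.0, 14.9 and 19.6 CPM in Del and 9.26, 8.46 and 12.9 CPM in Ins, so that all 3 Ins libraries lay below all 3 Del libraries, as they did for 1.87% of genes. The log2 fold change was -0.71 ± 0.24 and did not pass (edgeR unadjusted p = 0.0122, adjusted p = 1, 95% interval -1.23 to -0.18). That fit did not pair the same-numbered Ins and Del libraries. With a replicate block Mnx1 did not pass either. InvClone1 had 2.22, 7.35, 8.61 and 13.2 CPM and differed from Ins by 0.28 ± 0.36 (adjusted p = 1, -0.50 to 1.06), a direction that turned without the library term (-0.37). The lowest InvClone1 value is the ISML_third library and the highest the ISML_second one. InvClone2 had 8.41 and 9.68 CPM, InsDel5to10 6.30 and 7.72, and InsDel7to10 7.57 and 3.38. Against InvClone2 the fit gave -0.37 ± 0.30 for InsDel5to10 and -0.73 ± 0.31 for InsDel7to10 (edgeR adjusted p = 0.827 and 0.522). Without InsDel7to10 replicate 1 the latter became -1.41 and passed (adjusted p = 0.0319). The single libraries of InsDel8to10 and InvDel7to10 had 13.8 and 11.3 CPM. Over the lines at 120h Mnx1 ran from 11.3 to 19.6 CPM in ISML_second libraries and from 2.22 to 15.0 in the others.

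No difference between lines passed for Isl1 either, and its direction in Ins against Del turned with several alternatives. It had 0.626, 1.27 and 1.84 CPM in Del, 0.465, 0.421 and 3.89 in Ins, and 0.831, 0.528, 0.778 and 2.39 in InvClone1. In each of these 3 lines the highest value was the ISML_second library. InsDel5to10 had 0.550 and 2.10 CPM, InsDel7to10 0.823 and 0.381, and InvClone2 0.732 and 1.10. The 5 differences ran from -1.17 ± 0.69 (InsDel7to10 against InsDel5to10, edgeR adjusted p = 0.593) to 0.54 ± 0.65 (InsDel5to10 against InvClone2, adjusted p = 0.880), and both turned sign without InsDel5to10 replicate 2 (0.11 and -0.73). En1 had 0 counts in both InsDel5to10 libraries and 8 and 4 counts in InsDel7to10, and did not pass (edgeR adjusted p = 0.390), although it did with no filter on low counts (adjusted p = 0.00474).

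Levels per length place the 7 genes in order, from the deposited FPKM, which divides by transcript length and by library size. At 120h Mnx1 was the highest (median 2.86 FPKM over 18 libraries, 0.773 to 6.28), followed by Isl1 (0.278, 0.110 to 1.24). En1, Isl2 and Lhx5 had medians of 0.0731, 0.0501 and 0.0494 FPKM with overlapping ranges, and Lhx3 and Lhx4 had a median of 0. In the ISML_second libraries at 144h Mnx1 (4.68 FPKM, 4.17 to 8.90) and Isl1 (1.50, 1.41 to 2.23) still led, without overlap, and Lhx3 came next (0.851, 0.597 to 1.23), below every Isl1 value. Lhx4 (0.266), En1 (0.260) and Isl2 (0.253) had overlapping ranges, and Lhx5 had a median of 0.0985 with 1.85 FPKM in InsDel8to10. In the 1 library at 168h the order was Isl1 (4.07 FPKM), Mnx1 (2.58), Lhx4 (2.05), Lhx3 (1.95), Lhx5 (1.03), Isl2 (0.779) and En1 (0.203). Within a gene CPM and FPKM ordered the 26 libraries much alike (Spearman's rho 0.959 to 0.993, a description) and named the same highest library for each of the 7.

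The genes around these factors were described from lists of textbook genes, for the same 10 libraries. Of 16 motor neuron genes 14 were tested, and 9 rose and 3 fell from 120h to 144h. Their median log2 fold change was 1.52, against -0.0080 over all genes tested. The summed CPM of the 16 overlapped between the stages, at 209 to 223 at 120h and 210 to 246 at 144h. Of all 15011 genes tested 15.2% passed and 9.25% were higher, the shares to set beside each list here and below for these stages. Neurog2, a proneural factor, rose by 3.82 ± 0.23 and Onecut1 by 2.89 ± 0.16, while Olig2 and Nkx6-1, the progenitor factors of motor neurons, rose by 2.47 ± 0.20 and 1.94 ± 0.16 (edgeR adjusted p = 7.08e-05, 4.57e-05, 1.76e-04 and 2.14e-04). Slc18a3, the vesicular acetylcholine transporter of mature motor neurons, reached 1.23 to 1.98 CPM at 144h in these lines and 3.78 CPM at 168h in InvClone1. Chat, the enzyme that makes acetylcholine, had 2 to 8 counts at 144h and 31 at 168h. Of 21 pan-neuronal genes 15 rose and 1 fell (median 2.08), among them Elavl3 by 4.25 ± 0.21, Neurod4 by 5.56 ± 0.29, Myt1 by 6.29 ± 0.39 and Neurog1 by 5.16 ± 0.33, which are genes of new neurons (adjusted p = 4.09e-05, 4.50e-05, 7.08e-05 and 7.91e-05). Neurog1 had 2 to 9 counts at 120h and 126 to 316 at 144h. Genes so low at 120h passed the filter on low counts only because of their 144h libraries, so the list counts lend no support of their own.

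Of 32 interneuron identity factors 19 were tested and 6 rose and 4 fell, with a median of 0.0395. The summed CPM of the 32 was 115 to 130 at 120h and 85.0 to 108 at 144h. Prdm12, a factor of progenitors of V1 interneurons, rose by 4.21 ± 0.47 and Gbx1 by 1.82 ± 0.17, and Lhx1 fell by 2.10 (log2 scale, edgeR adjusted p = 8.53e-04, 4.04e-04 and 0.00128). Lhx1 is also used in early mesoderm, and its level was 33.3 CPM in InvClone1 at 96h. Among the 10 LIM cofactors, all tested, Lmo3 rose by 2.33 ± 0.36 and Lmo1 by 1.32 ± 0.31, and Lmo2, also a blood and endothelial gene, fell by 1.40 (adjusted p = 0.00399, 0.0229 and 8.37e-04). Of 8 other LIM homeobox and engrailed genes 5 were tested, and Lmx1b rose by 0.75 ± 0.15 while Lhx1 fell. All 12 neural progenitor markers rose and all 8 tailbud markers fell. Sox1 rose by 1.92 ± 0.09, Sox2 by 1.58, Pax6 by 2.98 and Dbx1 by 4.84 (edgeR adjusted p = 3.35e-05, 4.57e-05, 4.09e-05 and 5.20e-05). Fgf8, Msgn1 and Tbx6 fell by 1.64, 3.76 and 3.52 (adjusted p = 2.88e-04, 0.00167 and 0.00173). In InvClone1 between 144h and 168h, where 0.839% of all genes passed and the median log2 fold change over all was 0.10, 10 of 21 pan-neuronal genes passed, all higher (median 3.04). Of 16 motor neuron genes 1 was higher and 1 lower (median 1.71), and the difference between the lists was not tested.

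**Figure D5:**
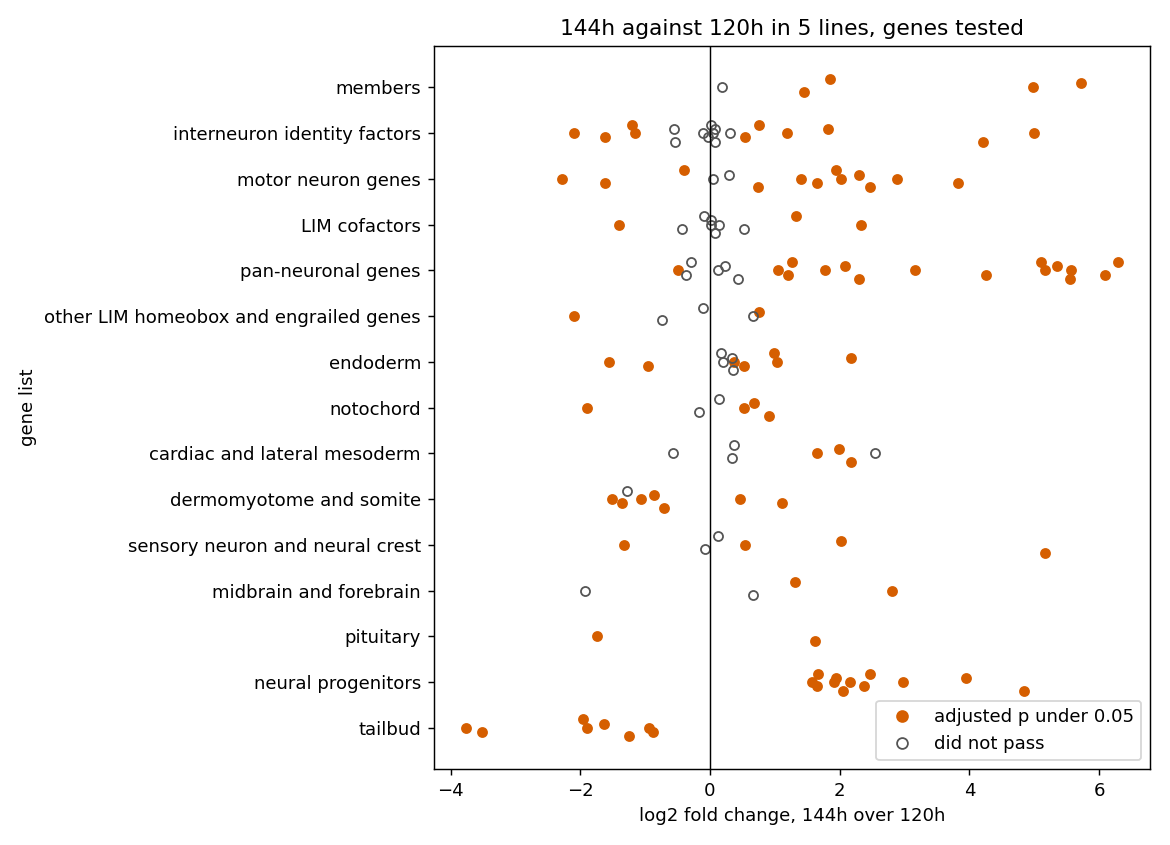
Log2 fold change from 120h to 144h (horizontal axis) of the genes tested in each list (vertical axis), 1 point per gene, filled where edgeR's adjusted p was under 0.05. Lhx3 and Lhx4 lie among the largest values, beside pan-neuronal genes such as Myt1 at 6.29, and the neural progenitor and tailbud lists lie wholly above and below 0.

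The genes most like each member were found by Pearson's r of log2(CPM + 1) over the 26 libraries, among 12234 genes with a mean of at least 1 CPM. The libraries share lines, stages and labels, so r is a description. Among the genes nearest to Lhx3 were the glycine receptor gene Glra1 (r = 0.97) and Elavl3 (0.97), and nearest to Lhx4 were Myt1 (0.97), Lamc3 (0.96) and Glra1 (0.96). Without the 2 libraries farthest from the median, InvClone1 at 168h and its replicate 2 at 144h, these values stayed at 0.91 or above. Other 144h libraries remained, so the split by stage did too. Spearman's rho of these pairs over the 26 libraries was lower, 0.551 to 0.718. For Isl1 they were Pdlim1 (0.92), Mybpc1 (0.90) and Shisal1 (0.89), and for Isl2 Shisal1 (0.90) and Lamc3 (0.89). Lhx5 was nearest to Robo3 (0.94), Wnt7b (0.87) and Pax2 (0.79), and this rested on InsDel8to10 at 144h and InvClone1 at 168h: without them r was 0.50, 0.14 and 0.62. Mnx1 was nearest to Zfp341, Adam15 and Obsl1 (0.92 each), and En1 to the gap junction gene Gja4 (0.86), Col3a1 (0.85) and Vim (0.85), mesenchymal genes in the last 2 cases. Among the members themselves Lhx3 and Lhx4 had the highest Pearson's r (0.95), then Lhx4 and Isl2 (0.92), while by Spearman's rho Lhx3 and Isl1 came first (0.743, against 0.631 for Lhx3 and Lhx4). Mnx1 had Pearson's r of 0.12 to 0.38 with the others.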

How the data were processed

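Polyadenylated RNA was measured in 26 libraries, grouped by line and stage from the labels. InvClone1 replicates 2 and 3 at 120h were made with Illumina's TruSeq Stranded mRNA kit and the rest with its ISML kit, per the labels' protocols. The authors deposited a table of raw counts per gene, not normalized, and a table of FPKM values. The tools named are STAR 2.7.10a, cutadapt 1.18 and Cufflinks 2.2.1, with mm10, per the submitters' processing notes. In the sources used here the strand setting of counting and the annotation are not given, so reads of overlapping or antisense genes cannot be told apart. Of the deposited columns, 8 matched no sample and were not used.

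The test was the quasi-likelihood F-test of edgeR 4.0.16 (R 4.3.3) on the counts (TMM, minimum count 10, Benjamini-Hochberg over all genes tested, threshold 0.05). The stage comparison used 10 ISML_second libraries with a term for line (15011 genes, 4 residual degrees of freedom). The other comparisons came from 1 fit of 26 libraries with terms for group and library label (17769 genes, 8 residual degrees of freedom), which takes the spread of a library alone in its group from the replicated groups. Their alternatives were run for members with a mean of at least 10 counts in a compared group. CPM were computed on TMM-adjusted library sizes. Intervals of fold changes use the degrees of freedom of the fit. Poisson and ratio intervals are exact at 95% and cover counting error only. The script was tested on simulated data. Alternatives were DESeq2's size factors, other filters, no line or library term, the compared libraries alone, a replicate block, leaving out libraries, DESeq2 1.42.0 and, chosen after seeing the data, crossed pairing and leaving out 1 InvClone1 library at 120h or 144h. Same-numbered Ins and Del libraries deviated together (correlations 0.627, 0.408 and 0.770, number 3 sharing the ISML_second label), which pairs them. The main test of Ins against Del did not use this pairing, which entered only the alternative with a replicate block. The labels do not say that replicates were separate cultures, and the spread that p-values measure may then be technical.

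The 7 genes, the gene lists and the alternatives were chosen with earlier results of these data known. Named besides the 7 were, in each list, up to 4 genes past the threshold with the smallest adjusted p in the stage comparison, and the 3 genes most like each member by Pearson's r, leaving out predicted gene models. Genes named for another reason (Slc18a3, Chat, Otp, En2, Pou1f1) were chosen after their values were seen, and some genes that the rule names are not reported here. Promoters and their motifs came from RefSeq (GRCm38.p6); windows that lie inside the deposited gene span were not printed.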

Additional observations from a re-analysis of the deposited data

Results flagged for a closer look

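The test of extreme values used here was Dixon's ratio of the gap to the nearest library over the whole range, at the 95% level. It set apart 6 of 21 member and group pairs. Its chance rate of about 1 in 20 holds for normally distributed values from 1 population. The groups here hold low counts, different lines or different library labels, so the 6 cannot be set against that rate. Lhx5 in InsDel8to10 at 144h, with 141 counts against 3 to 11 in the other ISML_second libraries, had a gap of 0.940 of the range. Mnx1 in InvClone1 replicate 2 at 144h, with 25.3 CPM against 12.9 to 14.4 in the other ISML_second libraries, had a gap of 0.878. Isl1 in Ins at 144h, with 7.15 CPM against 4.83 to 5.30, had a gap of 0.797. Among the 4 InvClone1 libraries at 120h, Isl1 in replicate 4, the ISML_second library, had 2.39 CPM against 0.528 to 0.831 and a gap of 0.837. En1 in replicate 3, a TruSeq library, had 0.441 CPM against 0.231 to 0.246 and a gap of 0.927. Lhx3 in replicate 1 had a gap of 1 of the range, which is 1 read against 0 in each of the other 3.

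Mnx1 moved in opposite directions between 120h and 144h in different lines. Its ratio was 1.92 in InvClone1 and 1.24 in InvDel7to10, and 0.736 in Del. Each line has 1 library a stage, the intervals behind these directions cover counting error only, and the difference between the lines was not tested.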

How the results depend on the processing

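Lhx3, Lhx4 and Isl1 stayed past the threshold from 120h to 144h in every alternative in which they were tested, including without each line in turn; a minimum count of 50, which Lhx3, Lhx4 and En1 did not reach, left 1 of the 7 genes past it. Without a line in turn, the count of all genes past it in that comparison ran from 1365 (without InsDel8to10) to 4831 (without InvClone1), and Mnx1 from -0.0390 (without InvClone1) to 0.337. From 144h to 168h the counts of genes and of the 7 were 430 and 2 with DESeq2 (Lhx4 and Isl1; it gave no adjusted p for Lhx5, Isl2 and En1), 1133 and 6 with no filter, 27 and 0 with no library term (Mnx1 -0.90, En1 -0.22) and 24 and 1 without InvClone1 replicate 2 at 144h. From 96h to 120h, 1 of the 7 passed with DESeq2 (Isl1) and 3 with no filter (2224 genes), and with no library term 716 genes did and Mnx1 turned to 1.31.

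Among the lines at 120h the count for Ins against Del was 2 with DESeq2, 89 with no filter and 0 in the compared libraries alone. For InvClone1 against Ins it was 9 with no filter. For InsDel5to10 against InvClone2 it was 46 with DESeq2, 383 with no filter and 6 with no library term. For InsDel7to10 against InvClone2 it was 161 with DESeq2, 554 with no filter and 0 both with no library term and in the compared libraries alone. For InsDel7to10 against InsDel5to10 it was 289 with DESeq2, 957 with no filter (1 of the 7, En1), 7 with no library term and 4 in the compared libraries alone. Leaving out 1 library at a time gave 1 to 1, 3 to 303, 3 to 9, 0 to 295 and 3 to 939 genes in these 5 comparisons, with 303 without InvClone1 replicate 4, 295 without InsDel7to10 replicate 1 and 939 without InsDel7to10 replicate 2. InsDel7to10 replicate 1 decided the call of Mnx1 against InvClone2 (1 of the 7 without it, 0 to 1 over all). Isl1 in Ins against Del turned to 0.336 with no library term, to 0.338 in the compared libraries alone and without 1 library ran from -1.08 to 0.328, above 0 without Ins replicate 1, Ins replicate 2 or Del replicate 2 (0.0348, 0.0831 and 0.328). In InvClone1 against Ins it ran from -0.264 to 1.45, the latter without Ins replicate 3. Mnx1 in InvClone1 against Ins turned to -0.373 with no library term and -0.368 in the compared libraries alone. Isl1 ran from -0.734 to 1.19 for InsDel5to10 against InvClone2 and from -1.81 to 0.110 for InsDel7to10 against InsDel5to10, the turns coming without InsDel5to10 replicate 2. In the latter comparison Mnx1 ran from -1.05 to 0.109, the turn coming without InsDel7to10 replicate 2. The cause of these shifts was not tested.

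In fits with a replicate block the counts of genes in the 5 line comparisons were 2, 0, 932, 0 and 3, in the order above, none of the 7 genes passed, and Mnx1 in InvClone1 against Ins turned to -0.896. Crossed pairing, chosen after seeing the data because the same-numbered libraries correlated at -0.283 and -0.181, gave 0 genes for InsDel7to10 against InvClone2 and 4 against InsDel5to10. Same-numbered InsDel5to10 and InvClone2 libraries correlated at 0.437, and InvClone1 and Ins ones at 0.202, 0.494 and 0.0876. With 2 pairs, or with a pair under 0.1, and no label that ties the numbers to a batch, neither was taken as paired. Depth limits Lhx3, Lhx4, Lhx5, Isl2 and En1 at 120h, where most of the 18 libraries hold fewer than 10 reads of each.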
